A study of Mus musculus with 6 samples.

Results

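Mouse embryonic stem cells that were rich in RNA were compared with cells of the same library that were poor in RNA. The RNA content of a well was taken as its gene counts divided by its ERCC counts, where ERCC is a set of synthetic spike-in RNAs added to the wells and a count is a molecule recognised by its unique molecular identifier (UMI). Of 1128 wells, 943 held between 6000 and 200000 gene counts and at least 100 ERCC counts. Within each of the 6 libraries these wells were ranked by RNA content and split into 3 near equal parts (terciles), and the top tercile (312 wells in all) was set against the bottom tercile (312 wells), so that 624 wells entered the comparison. The wells were thus chosen by their RNA content, and its values are therefore given as a description with no test. What was tested was the share that each gene took of the gene counts.

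The cells belonged to the established mouse embryonic stem cell lines R1 and IB10, with 1 library per line in each of 3 cultures, all in serum-free N2B27 medium with LIF. Rosette_LIM cells had 2 µM IWP2, which blocks secretion of WNT ligands, and 0.1 µM PD325901, a MEK inhibitor, for 6 passages in R1 and 5 in IB10. Primed_4d cells had 2 µM IWP2 together with the growth factors Activin A (20 ng/ml) and FGF2 (12 ng/ml) during 4 days. LIF_2i cells had 3 µM CHIR99021, a GSK3 inhibitor that switches on WNT signalling, and 0.1 µM PD325901. Passage numbers were 28 (R1) and 33 (IB10) in rosette_LIM, and 24 and 28 in both primed_4d and LIF_2i. Nothing in the labels separates cultures within a line, and each library is 1 sample, and the p-values below thus rest on the spread between libraries, which may be partly technical.

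A dividing cell roughly keeps its RNA concentration while its volume grows, so that its total RNA builds up from the start of the cell cycle to mitosis. S phase genes serve DNA replication, and G2/M genes condense and separate the chromosomes. Ribosomal RNA and the messages of ribosomal proteins and mitochondria make up a large portion of cellular RNA in fast-growing stem cells. A share of counts is relative: a gene with a higher share in rich wells took more of the RNA there, and a gene with a lower share could still have had more molecules per cell.

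Libraries held between 4675388 and 7806882 gene counts, and the wells used held a median of 29973 to 45416. Libraries lost unequal numbers of wells to the lower limit: 84 of 188 in R1 primed_4d, against 4 to 38 in the others. Marker genes followed the labels in both terciles: Dnmt3b stood at 970 and 999 counts per 1000000 gene counts (CPM) in the rich wells of the R1 and IB10 primed_4d libraries, against 89.1 and 102 CPM in LIF_2i, and Zfp42 at 93.9 and 107 CPM in primed_4d, against 1242 and 1053 CPM in LIF_2i. No 2 of the 943 wells held identical values. No doublet caller was run, and between 1 and 8 wells per library held over 2 times the median RNA content of their library.

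The terciles differed in gene counts more than in spike-in counts. The median RNA content of rich wells ranged from 71.2 to 102.7 gene counts per ERCC count over the 6 libraries (median 90.2), against 25.9 to 52.1 (median 31.1) in poor wells. Rich wells held a median of 45303 to 62642 gene counts, against 12178 to 30817 in poor wells. Their median ERCC counts were 449 to 678, against 514 to 775 in poor wells. Every library's rich wells thus lay above its poor wells in gene counts at the median, while ERCC counts of the 2 terciles overlapped across libraries and were lower in rich wells of each library. The ratio of the rich to the poor median was 2.66 and 2.31 in rosette_LIM (R1 and IB10), 2.88 and 3.97 in primed_4d, and 1.99 and 1.91 in LIF_2i. The terciles met without a gap: the lowest rich well and the highest middle well of a library differed by at most the step between 80.5 (rich) and 78.2 (middle) in R1 primed_4d. Gene counts and ERCC counts of the same well were positively related in all 6 libraries (Spearman's rho 0.14 to 0.45 over 104 to 184 wells, which share a library and its amplification).

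Among the wells used, rosette_LIM had the lowest median RNA content of the 3 conditions in both lines. In R1 it was 50.02 gene counts per ERCC count in rosette_LIM and 71.2 in primed_4d, against 62.2 in LIF_2i. In IB10 it was 48.2 in rosette_LIM and 64.3 in primed_4d, against 72.9 in LIF_2i. Rosette_LIM thus lay below LIF_2i by log2 differences of −0.31 (R1) and −0.60 (IB10), whereas primed_4d minus LIF_2i was 0.20 in R1 and −0.18 in IB10, so the lines disagreed in direction. With 2 libraries a group the smallest exact permutation p is 0.333, and no test was made. The R1 primed_4d value rests on the lower limit of 6000 counts: with every well of low count kept, its median fell to 28.1. In R1, LIF_2i then stood at 61.1 and rosette_LIM at 49.1, so rosette_LIM was no longer lowest in that line. Each line and condition was 1 library. The median ERCC counts of used wells ranged from 490 to 717 between libraries and were highest in IB10 rosette_LIM. Culture and spike-in level therefore cannot be told apart. Spread within a library also differed: the coefficient of variation of RNA content over wells was 0.428 and 0.404 in rosette_LIM (R1 and IB10) and 0.455 and 0.584 in primed_4d, against 0.371 and 0.322 in LIF_2i.

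**Figure D1:**
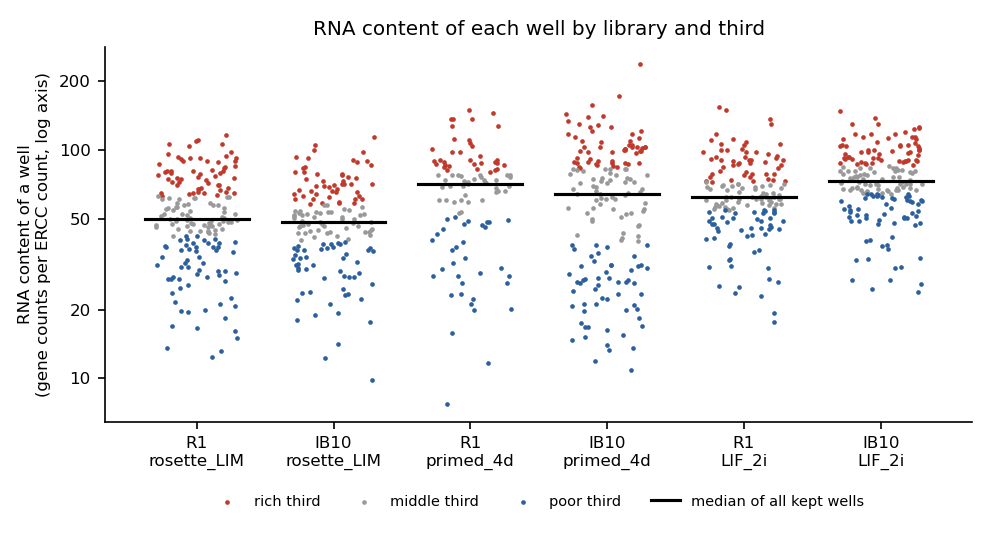
RNA content of every kept well (gene counts per ERCC count, log axis) in the 6 libraries, coloured by tercile; black lines are medians over all kept wells of a library. Rosette_LIM medians of 50.02 and 48.2 lie under those of primed_4d (71.2 and 64.3) and LIF_2i (62.2 and 72.9). The lowest poor wells lie at 7.67 in R1 primed_4d and 9.8 in IB10 rosette_LIM.

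A small set of genes changed its share with RNA content. Of 9672 genes tested, 109 took a higher share in rich wells and 117 a lower share, which is 2.34% of all genes tested (1.13% higher and 1.21% lower; edgeR's quasi-likelihood test on counts summed per library and tercile, library as a block, Benjamini-Hochberg adjusted p under 0.05). Most changes were modest: the median log2 difference was 0.42 among the genes that were higher and −0.43 among those that were lower, and 3 and 11 genes passed a 2-fold difference. All 6 libraries pointed the same way for 85 of the 109 and 94 of the 117; among all genes tested, 4.74% were higher and 4.70% lower in each of the 6. The share is the scale of every difference given here. Wells were ranked by gene counts over ERCC counts, so most genes had to rise when counted against the spike-ins instead. On that scale the median gene was higher by a log2 difference of 1.42. The calls were 9640 genes higher (99.7%) and 2 lower (0.0207%, Lars2 and Zscan4c). Of the 117 genes with a lower share, 114 then stood above 0. Less that median shift all 226 genes kept their direction, with 2 called higher (0.0207%) and 9 lower (0.0931%). Because gene counts enter both the ranking and the shares, each gene was also tested with wells ranked on gene rows that did not include it: 102 genes were then higher (1.05%) and 113 lower (1.17%), among them 90 of the 109 and 101 of the 117. Single libraries weighed on the counts: leaving out IB10 rosette_LIM left 44 higher and 36 lower, R1 rosette_LIM 54 and 65, R1 LIF_2i 69 and 74, and IB10 LIF_2i 70 and 79.

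**Figure D2:**
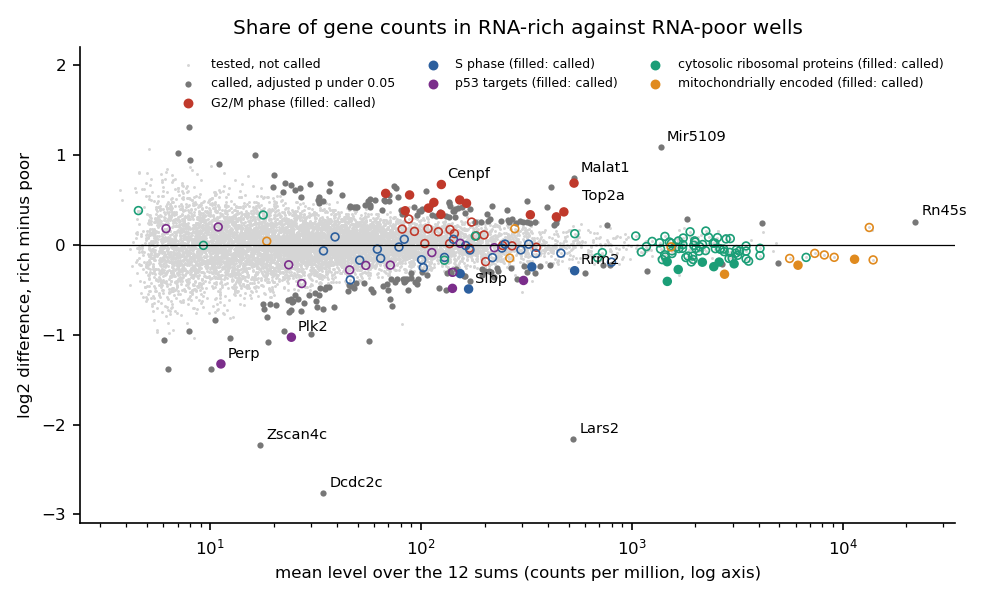
Log2 difference in share (rich minus poor) of each of the 9672 genes against its mean level over the 12 sums (CPM, log axis), with 5 gene lists in colour and filled where called. Called G2/M genes lie above 0, called p53 targets and called S phase genes below it, and Lars2 and Mir5109 stand apart at high level.

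Genes of G2 and mitosis gave the most calls of any list among the genes that were higher in rich wells. Of 30 genes listed for G2/M, all tested, 13 rose (43.3%, against 2.34% called among all genes tested) and none fell. The list's median log2 difference was 0.22, against 0.00 over all genes tested. The list's summed share was 0.518% to 0.721% in rich wells, against 0.462% to 0.560% in poor wells, and it was higher in rich wells of all 6 libraries (log2 0.14 to 0.36). Top2a, the topoisomerase that untangles sister chromatids, had 574 to 817 CPM in rich wells (median 617), against 350 to 462 CPM in poor wells (median 420). The ranges did not overlap, and the fitted log2 difference was 0.69 ± 0.07 (SE; edgeR adjusted p = 1.89e-07). Cenpf, a kinetochore protein, had 129 to 197 CPM in rich wells (median 145), against 87.4 to 105 CPM in poor wells (median 95.0), again without overlap (0.67 ± 0.09, edgeR adjusted p = 2.94e-05). Cenpe, a mitotic kinesin, also separated the terciles, with 88.3 to 125 CPM in rich wells against 56.9 to 88.1 CPM in poor wells (0.55 ± 0.10, edgeR adjusted p = 0.00179). Aurkb, the kinase of the chromosomal passenger complex, rose in all 6 libraries (0.57 ± 0.10, edgeR adjusted p = 0.00165), though its ranges of 59.2 to 97.8 CPM (rich) and 30.5 to 74.6 CPM (poor) overlapped. The other called members were Prc1 (0.50), Aurka (0.47), Plk1 (0.46), Mki67 (0.41), Kif23 (0.38), Ube2c (0.37), Nusap1 (0.34), Cdk1 (0.33) and Ccnb1 (0.31), which were higher in 4 to 6 libraries each. Kpna2, an importin outside the list, had 427 to 584 CPM in rich wells against 239 to 435 CPM in poor wells (0.64 ± 0.08, edgeR adjusted p = 2.32e-05).

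Promoters of 3 called G2/M genes are shown beside those of 2 called S phase genes, since these went in opposite directions. Sequences are from RefSeq's table on GRCm38.p6, which holds 26 of the 30 G2/M genes, 79 of the 109 genes that were higher and 83 of the 117 that were lower. In each window of 120 bases before the start site, printed 5′ to 3′ on the gene's strand, capitals mark CCAAT or its complement ATTGG (the CCAAT box, bound by NF-Y) and TTTGAA or its complement TTCAAA (the core of the cell cycle homology region, a repressor site of G1 cells). Top2a (chr11:99024190-99024309, minus strand), Aurka (chr2:172370571-172370690, minus strand) and Ccnb1 (chr13:100786487-100786606, minus strand) rose, whereas Slbp (chr5:33652575-33652694, minus strand) and Mcm2 (chr6:88898781-88898900, minus strand) fell.
Top2a: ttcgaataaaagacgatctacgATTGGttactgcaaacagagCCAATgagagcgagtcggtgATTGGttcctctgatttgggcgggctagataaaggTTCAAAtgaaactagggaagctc
Aurka: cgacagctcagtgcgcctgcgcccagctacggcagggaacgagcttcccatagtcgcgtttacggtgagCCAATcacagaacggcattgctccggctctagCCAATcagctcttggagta
Ccnb1: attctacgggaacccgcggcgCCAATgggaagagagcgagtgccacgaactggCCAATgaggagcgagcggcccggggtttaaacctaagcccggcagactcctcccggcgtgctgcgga
Slbp: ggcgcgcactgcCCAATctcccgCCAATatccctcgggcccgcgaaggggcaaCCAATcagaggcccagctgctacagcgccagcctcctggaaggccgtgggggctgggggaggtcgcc
Mcm2: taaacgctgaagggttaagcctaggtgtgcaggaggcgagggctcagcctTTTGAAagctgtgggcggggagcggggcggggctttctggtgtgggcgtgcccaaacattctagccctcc
Top2a held 3 CCAAT matches and 1 TTTGAA match, Aurka and Ccnb1 2 CCAAT matches each, Slbp 3 CCAAT matches, and Mcm2 1 TTTGAA match, none of them overlapping another. Over 250 bases before the start and on both strands, CCAAT was in 88.9% of the G2/M promoters, 50.6% of the promoters of genes that were higher and 41.8% of those that were lower, against 36.4% of the promoters of all genes tested. TTTGAA was in 37.0% of the G2/M promoters, 23.0% of those that were higher and 6.12% of those that were lower, against 946 of 9422 promoters of all genes tested. Promoters of the S phase list held CCAAT in 70.8% and TTTGAA in 12.5% of cases. A motif of the E2F family, TTTNNCGC, was in 37.5% of the S phase and 11.1% of the G2/M promoters, against 7.38% of all tested. The 5 promoters were chosen with their matches known. These are letter matches and say nothing of binding.

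Called S phase genes went the other way. Of 26 listed genes, all tested, 4 fell (15.4%, against 2.34% called among all genes tested) and none rose (median −0.10). The summed share was lower in rich wells of all 6 libraries, at 0.464% to 0.554% in rich against 0.481% to 0.606% in poor wells. Slbp, which binds the stem-loop of histone messages in S phase, had 121 to 152 CPM in rich wells (median 142), against 179 to 218 CPM in poor wells (median 188). Those ranges did not overlap (−0.49 ± 0.07, edgeR adjusted p = 9.33e-05). Mcm2, a subunit of the replicative helicase, had 288 to 331 CPM in rich wells against 336 to 400 CPM in poor wells, without overlap (−0.25 ± 0.06, edgeR adjusted p = 0.0297). Ung (−0.32), which removes uracil from DNA, and Rrm2 (−0.29), a subunit of ribonucleotide reductase, were lower in rich wells of all 6 libraries. Ung kept its call in 3 and Mcm2 in 4 of the 6 fits that each left out a library. Outside the list, Orc6, of the origin recognition complex, had 91.1 to 137 CPM in rich wells against 138 to 183 CPM in poor wells (−0.50 ± 0.08, edgeR adjusted p = 0.000438), and Dck, which makes deoxynucleotides by salvage, fell by 0.49. Of 4 tested histone genes, 1 was called: Hist1h2bc, with 87 counts in rich and 101 in poor wells in all (−1.39 ± 0.23, edgeR adjusted p = 0.000814). None of 15 tested G1 cyclins, kinases and inhibitors was called; Cdk4, the most abundant, stood at 466 to 638 CPM in rich wells and 450 to 597 CPM in poor wells (0.06 ± 0.06).

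The summed share of the G2/M list, which holds the G2/M genes compared here, was used to form strata of wells; the position of a cell in the cell cycle was not measured. The median G2/M share of a rich tercile was 0.509% to 0.707% (median 0.588%), against 0.399% to 0.519% (median 0.484%) in poor terciles. Middle terciles had 0.432% to 0.551% (median 0.462%). They lay under the poor tercile in both LIF_2i libraries and in R1 primed_4d, so the share did not rise step by step. Across wells, RNA content was positively related to the G2/M share in all 6 libraries (Spearman's rho 0.11 to 0.33 over 104 to 184 wells) and negatively to the S phase share (rho −0.24 to −0.13); shares and content come from the same counts. With terciles taken within strata of similar G2/M share, 59 genes were higher (0.612%) and 99 lower (1.03%) in rich wells, among them 46 of the 109 and 76 of the 117. Top2a (0.44, edgeR adjusted p = 0.00146), Cenpf (0.35, edgeR adjusted p = 0.0263) and Kpna2 (0.31, edgeR adjusted p = 0.0426) kept their calls there, while Aurkb (0.25, edgeR adjusted p = 0.27) did not. Of the 4 called S phase genes, Slbp kept its call (−0.33, edgeR adjusted p = 0.0169), and Ung (−0.15, edgeR adjusted p = 0.403), Rrm2 (−0.22, edgeR adjusted p = 0.0783) and Mcm2 (−0.21, edgeR adjusted p = 0.112) did not. Lars2 (−2.14) and Mir5109 (1.11) stood close to their values over all wells.

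**Figure D3:**
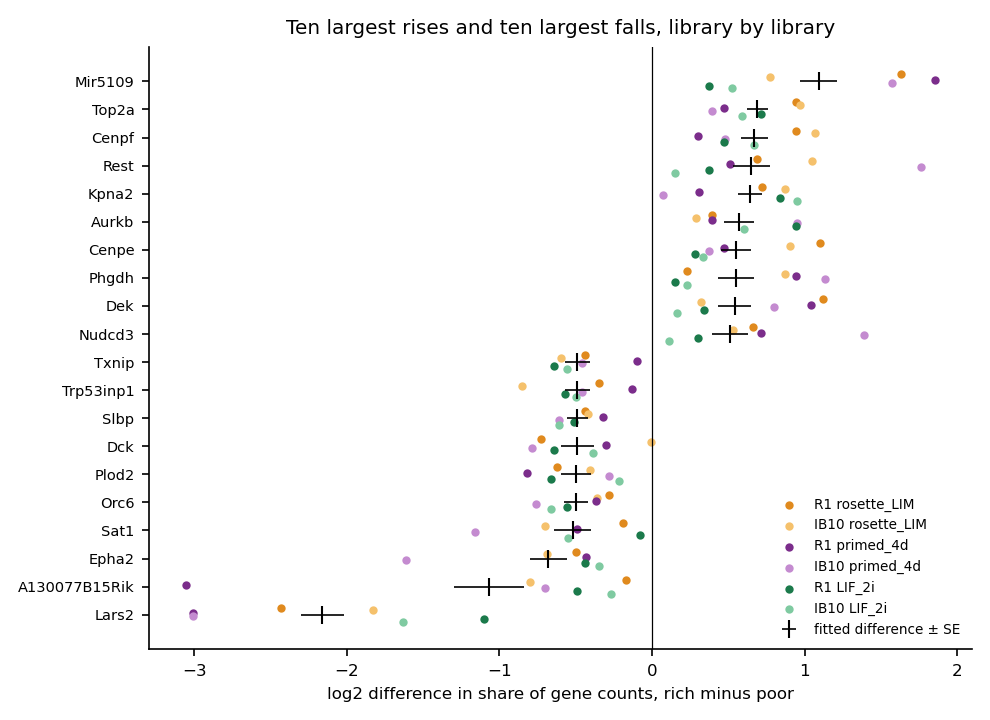
Log2 difference in share (rich minus poor) in each of the 6 libraries for the 10 largest rises and 10 largest falls among called genes of at least 50 CPM with 1 sign in all libraries; black bars are the fitted difference ± SE. Lars2 ranges from −3.01 to −1.10 and Top2a from 0.39 to 0.97, while A130077B15Rik has 1 library at −3.05.

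Lars2 was the gene most depleted in rich wells among those of at least 50 CPM. It encodes the mitochondrial leucyl-tRNA synthetase (chr9:123366927-123462666 on GRCm38, plus strand). Lars2 had 104 to 225 CPM in rich wells (median 187), against 445 to 1814 CPM in poor wells (median 696). Each library's rich tercile lay below every poor tercile, a 4.47-fold lower share (−2.16 ± 0.14, edgeR adjusted p = 8.89e-12). The poor tercile was the one that stood apart: rich minus middle was −0.44 and middle minus poor −1.74, comparisons that share the middle wells. Wells under the limit of 6000 counts held 117 to 1685 CPM of Lars2, on 3 to 71 counts a library. The mitochondrially encoded share had medians of 6.82% to 9.05% in rich terciles against 7.17% to 9.40% in poor terciles, and with wells ranked within strata of similar mitochondrial share Lars2 differed by −2.02 (edgeR adjusted p = 5.8e-12).

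Mir5109 and Malat1 moved with RNA content in the other direction. Mir5109 is a row of chromosome 5 that carries a microRNA's name; counting of poly(A) 3′ ends is not made to count mature microRNAs, and the row is given here by its name alone. It had 1423 to 2469 CPM in rich wells (median 1709), against 479 to 1682 CPM in poor wells (median 760), and was higher in rich wells of all 6 libraries (1.09 ± 0.12, edgeR adjusted p = 8.76e-07). Malat1, a long noncoding RNA that stays in the nucleus, had 515 to 1064 CPM in rich wells (median 600), against 242 to 645 CPM in poor wells (median 372). It was higher in 5 of 6 libraries (0.74 ± 0.12, edgeR adjusted p = 0.000654). No other of the 10 tested nuclear-retained noncoding RNAs was called. Rn45s, the ribosomal RNA precursor and the row with the most counts, took 14405 to 34719 CPM in rich wells against 15500 to 24754 CPM in poor wells (0.26 ± 0.06, edgeR adjusted p = 0.0168), ranges that overlapped widely. It lost its call without R1 rosette_LIM (0.78, the highest of its 6 differences), without IB10 rosette_LIM and without IB10 LIF_2i.

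**Figure D4:**
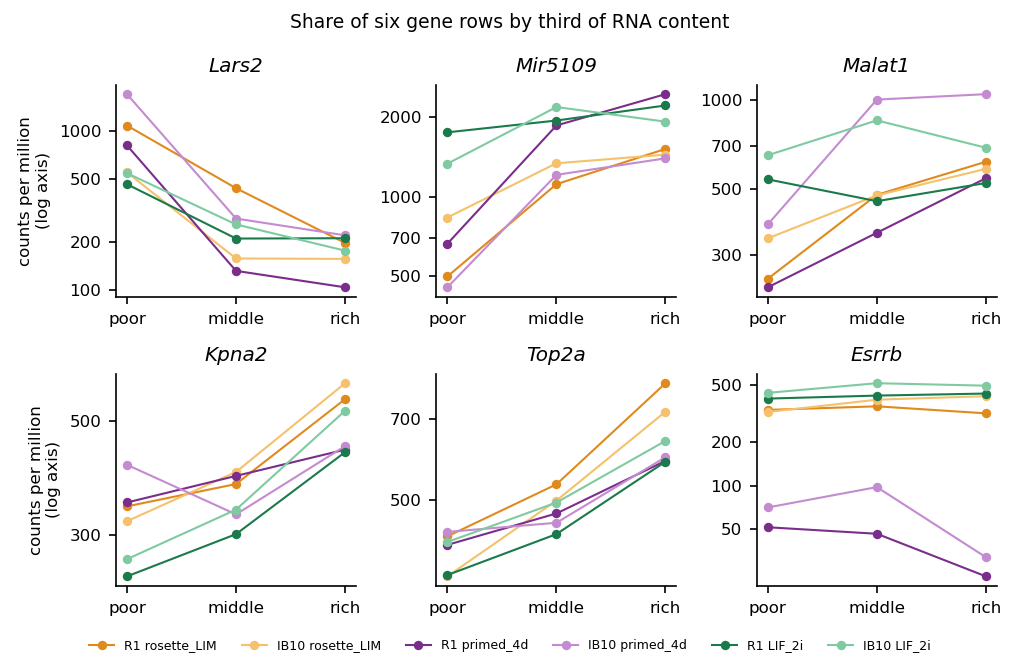
Share of 6 gene rows (CPM, log axis) in the poor, middle and rich tercile of each library. Lars2 drops mainly between the poor and the middle tercile, and Top2a climbs over both steps. In LIF_2i (R1 and IB10), Malat1 is level between rich (525 and 690 CPM) and poor wells (540 and 651 CPM), with 456 and 853 CPM in middle wells.

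The most abundant gene groups shifted only slightly. Of 13 mitochondrially encoded messages, 3 fell (23.1%, against 2.34% called among all genes tested) and none rose (median −0.14, with 10 below 0 and 3 above). The falls were mtNd3 of complex I (−0.33, edgeR adjusted p = 0.00315), mtCo3 (−0.23, edgeR adjusted p = 0.0133) and mtCo2 (−0.16, edgeR adjusted p = 0.0482) of complex IV. Uncalled and in the other direction, mtCo1 stood at 0.19 (edgeR adjusted p = 0.0527), higher in 4 of 6 libraries. Together the 13 took 6.67% to 9.08% of counts in rich wells, against 6.78% to 9.51% in poor wells, lower in rich wells of all 6 libraries by log2 0.01 to 0.27. Of 75 tested messages for cytosolic ribosomal proteins, 7 fell (9.33%, against 2.34% called among all genes tested) and none rose (median −0.05, with 51 below 0 and 24 above). The list took 13.9% to 17.3% in rich against 14.6% to 18.7% in poor wells. Rpl39 fell most, with 1050 to 1411 CPM in rich wells against 1107 to 2354 CPM in poor wells (−0.41 ± 0.07, edgeR adjusted p = 0.000814), followed by Rps23 (−0.28), Rps27a (−0.24) and Rps7 (−0.21). Ribosomal protein genes have many pseudogene copies, among which short reads can be split. Eef1a1, the elongation factor that delivers tRNAs, fell by 0.21 (edgeR adjusted p = 0.0193), and Eif3b, an initiation factor subunit, rose by 0.26 (edgeR adjusted p = 0.0333). Of 32 ribosome biogenesis genes 1 rose (3.12%, near the 2.34% called among all genes tested). It was Ncl, the nucleolar protein nucleolin, with 1676 to 2196 CPM in rich against 1429 to 1990 CPM in poor wells (0.29 ± 0.06, edgeR adjusted p = 0.00447). In that list 27 of the 32 had a difference above 0 and the median was 0.09. None of 18 mitochondrial ribosomal proteins, 20 proteasome subunits or 14 glycolysis genes was called; their most abundant members stood at 0.11 ± 0.07 (Mrpl51), −0.08 ± 0.06 (Psmb7) and 0.09 ± 0.05 (Pkm). Ndufa4 (−0.31) was the 1 call among 19 nuclear genes of oxidative phosphorylation (5.26%, against 2.34% of all genes tested). Leaving out each library in turn kept the call of Eif3b in 1 of 6 fits, mtCo2 in 2, Rps7 in 3, mtCo3, Rps27a and Eef1a1 in 4, and Ndufa4 in 5.

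Some targets of p53 and some early response genes were lower in rich wells. Of 15 tested p53 targets, 4 fell (26.7%, against 2.34% called among all genes tested) and none rose (median −0.23, with 12 below 0 and 3 above). The list's summed share was lower in rich wells of 5 of 6 libraries and higher by 0.05 in R1 primed_4d. Trp53inp1, a stress-induced regulator of autophagy and cell death, had 84.2 to 191 CPM in rich wells against 125 to 262 CPM in poor wells (−0.49 ± 0.08, edgeR adjusted p = 0.000693). Ccng1, a cyclin induced by p53, had 185 to 348 CPM in rich wells against 229 to 499 CPM in poor wells (−0.40 ± 0.07, edgeR adjusted p = 0.00102). Both were lower in all 6 libraries with overlapping ranges. Plk2 (−1.03), a kinase, and Perp (−1.33), a membrane protein of desmosomes and apoptosis, were scarce, at medians of 13.1 and 6.82 CPM in rich wells against 30.0 and 16.7 CPM in poor wells. Of 9 tested immediate early and dissociation genes, Btg2 (−0.72) and Jund (−0.35) fell (22.2%, against 2.34% called among all genes tested). That list's summed share was lower in 5 of 6 libraries and higher by 0.17 in R1 primed_4d. Leaving out each library in turn kept the call of Btg2 in 4, Jund in 5 and Sat1 in 4 of 6 fits. Other falls were Epha2 (−0.68), an ephrin receptor, Sat1 (−0.52), which acetylates polyamines, Plod2 (−0.50), a collagen lysyl hydroxylase, and Txnip (−0.49), which binds thioredoxin and limits glucose uptake.

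The remaining rises came from several lists. Of 18 tested genes of the ATF4 amino acid response, 3 rose (16.7%, against 2.34% called among all genes tested) and none fell. The list's median was 0.19, with 16 of 18 above 0. By library its median was 0.14 and 0.29 in rosette_LIM (R1 and IB10) and 0.36 and 0.26 in primed_4d, against 0.01 and 0.09 in LIF_2i. Phgdh, the first enzyme of serine synthesis, had 54.8 to 171 CPM in rich wells against 29.8 to 88.9 CPM in poor wells, higher in all 6 libraries (0.55 ± 0.12, edgeR adjusted p = 0.00775). Shmt2, the mitochondrial serine hydroxymethyltransferase, rose by 0.28 (edgeR adjusted p = 0.0203), and Chac1, which breaks down glutathione, by 0.68 (edgeR adjusted p = 0.0298) on 418 counts in rich and 96 in poor wells. Mvd, an enzyme of cholesterol synthesis, rose by 0.48 (edgeR adjusted p = 0.0203) and lost the call without R1 LIF_2i, without IB10 rosette_LIM or without R1 primed_4d. Hspa8, the constitutive HSC70 chaperone, was the 1 call among 21 tested chaperones (4.76%, against 2.34% of all genes tested). It had 3618 to 5030 CPM in rich wells against 2695 to 4498 CPM in poor wells (0.24 ± 0.05, edgeR adjusted p = 0.00856). Of 20 cytoskeletal genes, Tuba1c (0.25) and Tubb4b (0.22), both tubulins, rose; within strata of G2/M share they stood at −0.01 and 0.09, neither called. Among chromatin structure genes, Smc4 of condensin (0.43) and Ctcf (0.33) rose, whereas Lmnb1 of the lamina (−0.30) and Hmgb2 (−0.29) fell. Rest, a repressor of neuronal genes (0.65), Dek, a chromatin protein (0.54), and Nudcd3, a dynein cochaperone (0.51), also rose. They were among the 10 largest rises of called genes with at least 50 CPM and 1 sign in all 6 libraries. Taf7 (−0.35) was the 1 call among 28 genes of RNA polymerase II (3.57%, near the 2.34% of all genes tested). Leaving out each library in turn kept the call of Chac1 and Tuba1c in 1 of 6 fits, Ctcf and Tubb4b in 2, and Shmt2, Lmnb1 and Nudcd3 in 4.

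In the pluripotency lists, 0 of 25 naive, 3 of 18 formative and primed (16.7%) and 1 of 13 core genes (7.69%) were called. Over all genes tested the share was 2.34%, and counts this small do not tell the lists apart. None of the naive genes was called over all libraries (median −0.04); Dppa5a, the most abundant, had 2284 to 3383 CPM in rich and 2515 to 3769 CPM in poor wells (−0.14 ± 0.05, edgeR adjusted p = 0.213). In the formative and primed list, Dnmt3b, the de novo DNA methyltransferase (0.48, edgeR adjusted p = 0.00196), and Pim2, a kinase (0.46, edgeR adjusted p = 0.0212), rose, and Zic2, a zinc finger factor (−0.44, edgeR adjusted p = 0.0156), fell, of 18 tested. Dnmt3b was higher in rich wells of all 6 libraries whatever its level, from 30.3 CPM in rich against 24.6 CPM in poor wells of the library where it was scarcest. L1td1, an RNA-binding protein of stem cells, was the 1 call among 13 core genes (0.29). Skil, a SMAD repressor, fell by 0.42, the 1 call among 11 Nodal and Activin targets (9.09%, against 2.34% of all genes tested). Pim2 and Zic2 kept the call in 3, and Skil in 4, of the 6 fits that each left out a library. No call was made among WNT targets (8 tested), FGF/ERK targets (11), MYC family members (9) or mRNA decay genes (18). Lists for other cell types had low summed shares, and few of their genes could be tested: 4 of 12 for primitive endoderm, 4 of 10 for trophectoderm, 4 of 9 for neuroectoderm and 2 of 10 for feeder fibroblasts, none of them called. The summed shares were 75.4 to 464 CPM in rich against 104 to 399 CPM in poor wells for primitive endoderm, 44.6 to 87.3 against 17.3 to 100 CPM for trophectoderm, 76.8 to 221 against 79.4 to 207 CPM for neuroectoderm and 169 to 433 against 143 to 435 CPM for feeder fibroblasts.

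**Figure D5:**
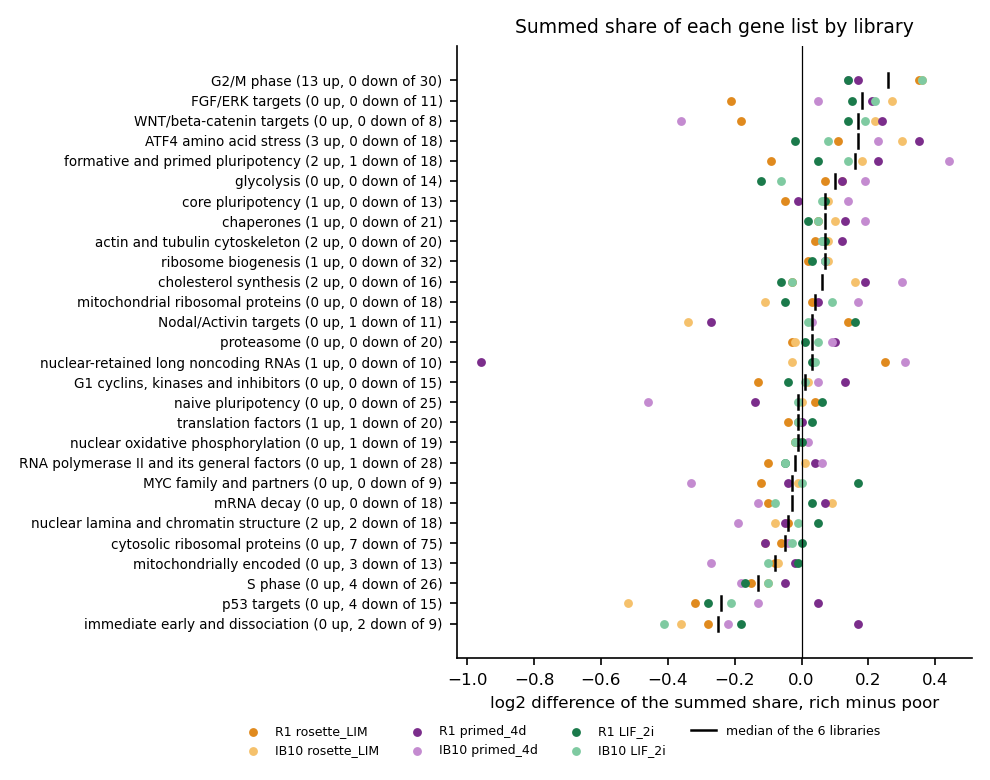
Log2 difference (rich minus poor) of the summed share of each list with at least 8 tested genes, in each library, with the median of the 6 libraries in black and the calls beside each name. The G2/M list lies above 0 and the S phase list below 0 in all 6 libraries. For nuclear-retained noncoding RNAs, R1 primed_4d stands at −0.96. In that library 1 poor well held 75.3% of the poor wells' counts of Kcnq1ot1, an imprinted antisense RNA, and the part of this well in the value was not tested.

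Some differences between rich and poor wells depended on the culture. A test of the interaction of tercile and condition over all 6 libraries called 18 genes, 0.186% of those tested (edgeR's quasi-likelihood test, adjusted p under 0.05), with 764 genes (7.90%) at an unadjusted p under 0.05. Malat1 differed by 1.33 and 0.76 in rosette_LIM (R1 and IB10) and by 1.18 and 1.40 in primed_4d, against −0.01 and 0.07 in LIF_2i (edgeR adjusted p of the interaction 3.78e-06). It was thus higher in rich wells of the 4 rosette_LIM and primed_4d libraries and level in LIF_2i. Lars2 differed by −2.43 and −1.83 in rosette_LIM and by −3.01 in both primed_4d libraries, against −1.10 and −1.63 in LIF_2i (edgeR adjusted p = 7.08e-07). Mir5109 differed by 1.63 and 0.77 in rosette_LIM and by 1.85 and 1.57 in primed_4d, against 0.37 and 0.52 in LIF_2i (edgeR adjusted p = 3.49e-05). The terciles of the LIF_2i libraries also lay closest together in RNA content (ratios of 1.99 and 1.91, against 2.31 to 3.97 elsewhere); its part in these interactions was not tested. Among the 18, Dcdc2c and A130077B15Rik rested on single poor wells of R1 primed_4d, which held 96.6% and 86.4% of that group's counts of them. Lars2, Malat1 and Mir5109 kept the call whichever library was left out, while the count of 18 went to between 7 (without R1 LIF_2i) and 156 (without R1 primed_4d) and was 8, 9, 10 and 45 without IB10 LIF_2i, R1 rosette_LIM, IB10 rosette_LIM and IB10 primed_4d. DESeq2's likelihood ratio test called 3 genes, namely Lars2, Malat1 and Esrrb, and not Mir5109.

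The naive list had its lowest median differences in primed_4d, at −0.33 (R1) and −0.64 (IB10), against 0.14 and −0.01 in LIF_2i. Its summed share differed by −0.14 and −0.46 in primed_4d, against 0.06 and −0.01 in LIF_2i. Other lists also moved in primed_4d, such as trophectoderm (median 1.38 and 1.03, 4 genes tested). Esrrb, an orphan nuclear receptor of the naive state, differed by −1.16 and −1.20 in primed_4d (R1 and IB10), against 0.15 in both LIF_2i libraries, and by −0.05 and 0.34 in rosette_LIM (edgeR adjusted p of the interaction 0.00334). Zfp42 (Rex1) differed by −0.34 and −1.48 in primed_4d against 0.15 and −0.01 in LIF_2i (edgeR adjusted p = 0.00292), and Nr0b1 (Dax1) by −1.20 and −1.03 against −0.30 and 0.21 (edgeR adjusted p = 0.0352). These were the 3 calls among 25 naive genes. In primed_4d, Esrrb stood at 23.4 and 31.8 CPM in rich wells (R1 and IB10), against 51.4 and 70.6 CPM in poor wells. All lay far under its 404 to 497 CPM in rich and poor wells of LIF_2i. Middle wells of primed_4d held 46.3 and 97.8 CPM of Esrrb, so in IB10 they lay above the poor wells. In R1, middle wells also held more Zfp42 (158 against 116 CPM in poor wells) and Nr0b1 (65.0 against 47.5 CPM). In IB10, poor wells held more of both (287 against 281 CPM, and 131 against 70.8 CPM). Wells of R1 primed_4d under the limit of 6000 counts held 265 CPM of Esrrb and 561 CPM of Zfp42, on 26 and 55 counts, and those of IB10 primed_4d 71.1 and 308 CPM, on 3 and 13 counts. Kpna2 differed by 0.72 and 0.87 in rosette_LIM and by 0.31 and 0.07 in primed_4d, against 0.84 and 0.95 in LIF_2i (edgeR adjusted p = 0.0249), and Ccnb1, the mitotic cyclin, stood at −0.16 and −0.09 in primed_4d against 0.39 and 0.51 in LIF_2i (edgeR adjusted p = 0.0249). Enox1, a cell-surface oxidoreductase, differed by −1.21 and −1.11 in primed_4d against 0.86 and 0.93 in LIF_2i (edgeR adjusted p = 0.00288). Esrrb kept the call without any 1 library; Zfp42 lost it without IB10 primed_4d and Enox1 without IB10 LIF_2i, and Nr0b1 (lost without IB10 LIF_2i, IB10 rosette_LIM or IB10 primed_4d), Ccnb1 and Kpna2 were called in 3, 2 and 1 of the 6 fits that each left out a library.

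No gene passed the test of a difference between the lines. The interaction of tercile and line called 0 genes by edgeR and 0 by DESeq2, with 328 genes (3.39%) at an unadjusted p under 0.05 in edgeR. Fitted in R1 alone the comparison called 5 genes higher (0.0519%) and 8 lower (0.0831%), and in IB10 alone 18 (0.184%) and 22 (0.225%), from 3 libraries each.

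At equal depth, the difference in genes detected per well did not pass the test. Thinned to 6000 counts, rich wells had a median of 2473 to 2553 genes, against 2362 to 2557 in poor wells. Unthinned, the same medians were 6819 to 7546 genes in rich and 3440 to 5951 genes in poor wells. The thinned difference was 5 and 33 genes in rosette_LIM (R1 and IB10), 93 and 111 in primed_4d, and −4 and 28 in LIF_2i, a mean of 44.3 ± 47.1 (SD, n = 6; exact sign-flip permutation test, two-sided, p = 0.0625, where 0.0312 is the smallest p that 6 pairs allow). The direction was the same in 5 of 6 libraries, with primed_4d highest in both lines.

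Genes that were higher in rich wells had longer transcripts. The median length of the longest annotated transcript was 3734 bases for 100 genes that were higher and 2209 bases for 111 that were lower, against 3112 bases for all genes tested. Across 3271 genes of at least 50 CPM the relation of length and difference was weak (rho 0.13; 0.02 to 0.24 in single libraries, highest in IB10 rosette_LIM), and genes are not independent replicates. By chromosome the medians lay between −0.06 and 0.03, apart from −0.13 for chromosome M and −0.07 for 5 genes on Y. Chromosome 8, whose gain is common in cultured mouse embryonic stem cells, had the lowest autosomal median (−0.06, and −0.14 to −0.01 in single libraries). It held 11 falls and 3 rises among 550 tested genes, Orc6, Jund and Hmgb2 among the falls. Over all genes tested, 1.21% fell and 1.13% rose. Other chromosomes stood close: chromosome 16 had a median of −0.05, and chromosomes 10 and 6 held 9 and 8 falls and 5 and 4 rises among 475 and 448 genes. The part of chromosome 8 in the calls of Orc6, Jund and Hmgb2 was not tested.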

How the data were processed

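Single cells were sorted into plates and counted with SORT-seq, a form of CEL-Seq2 that counts transcript 3′ ends, per the labels' protocols. The table the authors deposited holds expected counts: UMIs per gene and well, corrected by them for UMI collisions. BWA and the builds mm10 and GRCm38 are named in the submitters' processing notes; for the counting annotation, no source used here gives a name. All 1297 distinct values matched, to 2 decimals, a whole number of the 4096 possible UMIs after that correction, so totals are unscaled depth. All 1128 columns and 19532 gene rows were used, and 91 ERCC rows only for RNA content.

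Counts were summed per library and tercile and rounded. edgeR 4.0.16 (R 4.3.3; TMM, filterByExpr with a minimum count of 10, quasi-likelihood test, library as block, 5 residual degrees of freedom) tested 9672 genes, two-sided; interactions had 3 (condition) and 4 (line). The library pairs the sums, since each library gave both. DESeq2 1.42.0 was an alternative. Levels are CPM after TMM, except by tercile and for lists, where they are plain shares of gene counts. The fit was tested on simulated counts. Genes at equal depth are expected numbers by rarefaction. Coordinates are GENCODE M21 on GRCm38.

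Named genes were, among called genes of at least 50 CPM with 1 sign in 6 libraries, the 10 largest rises and falls; up to 4 called members of each list; the 5 rows with the most counts; and up to 5 genes of smallest p per interaction. The rule also allowed up to 2 uncalled members per list; this was narrowed afterwards to the most abundant member of lists with no call. Other genes named were chosen after their values were seen. The wells, members and 35 gene lists (652 of 656 genes found) were chosen with earlier results of these data known. 1 named gene is not reported here.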

Additional observations from a re-analysis of the deposited data

Results flagged for a closer look

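Among the 82 groups of 6 library values that were examined, 79 of them named genes, 11 genes had 1 library whose difference between rich and poor wells (log2) lay far from the other 5; chance flags about 1 in 20 such groups. In R1 primed_4d these were Dcdc2c (−5.48), A130077B15Rik (−3.05) and Txnip (−0.10, nearer to 0 than elsewhere). In IB10 primed_4d, the library with the widest gap in RNA content between rich and poor wells, they were Eomes (3.46, with 0 CPM in poor wells), Epha2 (−1.61), Hmgb2 (−0.70), mtAtp6 (−0.50), Cnot1 (−0.48), Dppa5a (−0.46) and Sparc (−0.37). In R1 rosette_LIM it was Cdk4 (−0.07, the other 5 being above 0).

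Differences between rich and poor wells that varied with the condition by edgeR's interaction test were those of Lars2 (edgeR adjusted p = 7.08e-07), Malat1 (3.78e-06), Mir5109 (3.49e-05), Dcdc2c (0.000292), Enox1 (0.00288), A130077B15Rik (0.0249) and Kpna2 (0.0249). For Dcdc2c and A130077B15Rik, 1 poor well of R1 primed_4d each held 96.6% and 86.4% of that tercile's counts.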

How the results depend on the processing

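All of the 226 called genes that could be tested kept their direction under DESeq2, other size factors, no rescaling, no filter, no replicate block, larger or smaller groups of wells, other limits on counts, and each library left out. The counts depended on the setting, at 109 higher and 117 lower as reported. Without the replicate block, which pairs the terciles of a library, they were 0 and 1 (366 genes at an unadjusted p under 0.05). DESeq2 gave 56 and 57, no filter 231 and 141, and ERCC scaling less the median shift 2 and 9. ERCC scaling itself gave 9640 and 2 (114 of the 117 lower genes turned), a rise that the ranking by RNA content built in. Ranking by ERCC counts alone gave 0 and 2 (517 at an unadjusted p under 0.05) and turned 68 genes of 224 tested; gene counts alone gave 89 and 105. Strata of G2/M share gave 59 higher, the middle of the mitochondrial share 59 and 40, rich against middle 44 and 28, middle against poor 8 and 6, R1 alone 5 and 8, IB10 alone 18 and 22, and leaving out each gene's top well 197 lower. Leaving out libraries gave 44 to 102 higher and 36 to 103 lower. The cause was not tested. ERCC scaling less its shift, the middle of the mitochondrial share, comparisons with middle wells, single lines and the top well were chosen after seeing the data.

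Ranking by ERCC counts alone turned Kpna2 (−0.06), Aurkb (−0.05), Dek (−0.04), A130077B15Rik (0.07), Txnip (0.03), Trp53inp1 (0.02), Hist1h2bc (0.11), Mvd (−0.08), Rps7 (0.02), Ctcf (−0.11), Tuba1c (−0.15), Btg2 (0.22), Jund (0.02), Plk2 (0.41), Ccng1 (0.01), Chac1 (−0.09) and L1td1 (−0.03). Rich against middle turned A130077B15Rik (0.03) and Mvd (−0.03), and Tuba1c turned in middle against poor (−0.02) and in strata of G2/M share (−0.01). Of 61 called named genes, 33 kept the call whichever library was left out.

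The 18 condition interactions became 64 with no filter, 45 with gene counts alone, 3 with DESeq2 (Lars2, Malat1 and Esrrb) and 7 to 156 with libraries left out. The line interaction, at 0, became 9 with no filter, 1 with gene counts alone and 0 to 2 with libraries left out. Genes at equal depth differed by 59.2 when ranked by gene counts alone (exact permutation p = 0.0312, the smallest possible). RNA content (log2) of R1 primed_4d turned with no lower limit, to −1.12 against LIF_2i and −0.80 against rosette_LIM, and with sums was 0.33 above rosette_LIM. In IB10, primed_4d minus rosette_LIM was 0.58 with a higher count limit and −0.08 with gene counts alone, and primed_4d minus LIF_2i −0.50 with gene counts alone. Depth limits genes of few counts, such as Hist1h2bc.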

Other observations

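A pair of poor wells of R1 primed_4d held many counts of a few genes. Well 135, with 20364 gene counts and an RNA content of 23.2 gene counts per ERCC count, held 253.7 counts of Dcdc2c and 69.58 of Zscan4c, a marker of the transient 2-cell-like state, which was all the Zscan4c of that library's poor wells. In IB10 LIF_2i, 1 poor well held 23.06 counts of Zscan4c, 95.8% of those in its tercile. Zscan4c was lower in rich wells of all 6 libraries (log2 −2.23, edgeR adjusted p = 0.000294), yet only 2 of 312 rich, 2 of 319 middle and 4 of 312 poor wells held 5 or more counts of it. With the top well of each tercile left out, neither Zscan4c nor Dcdc2c had enough counts to be tested.

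Well 55 of R1 primed_4d, with 16618 gene counts, held 3038 counts of Kcnq1ot1, an imprinted antisense RNA, which was 75.3% of the Kcnq1ot1 counts in that library's poor wells, and 184.1 counts of A130077B15Rik. The next highest well for Kcnq1ot1, a rich well of R1 LIF_2i, held 388.8 counts among 138561. Kcnq1ot1 was picked with its values known.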
